A study of Mus musculus with 6 samples.

Results

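The blood-brain barrier is described here by 10 genes of brain endothelium: the junction gene Cldn5, the carriers Slc2a1, Slc16a1, Slc7a5, Mfsd2a, Slco1a4 and Slco1c1, the efflux pumps Abcb1a and Abcg2, and the receptor Tfrc. They were taken by name, 10 of the 28324 genes of the deposited table, and were followed across the 17 cell classes that the authors gave to the cells. The cells came from the hippocampus of 6 APP/PS1 mice aged 10 weeks. The treatment was an antisense oligonucleotide (ASO) in 3 of them and phosphate buffered saline (PBS) in the other 3. All 6 mice carried the amyloid transgenes APPswe and PSEN1dE9, so there is no mouse without them, and the labels do not name the promoter that drives the transgenes. The title names IDOL, the ubiquitin ligase encoded by Mylip, as what was reduced, and the control was saline and not another oligonucleotide. Each mouse was 1 library made by Drop-Seq, in which single cells are caught in droplets with barcoded beads and the 3′ ends of transcripts are sequenced and counted by a molecular barcode, the unique molecular identifier (UMI).

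Brain capillaries are sealed by tight junctions between endothelial cells, so most solutes cross through a carrier or not at all. Carriers bring in glucose, lactate, amino acids and lipids, pumps on the blood side return drugs and toxins to the blood, and receptors such as the transferrin receptor take up proteins by endocytosis. Mural cells, the pericytes and smooth muscle cells that wrap the vessels, adhere to the endothelium, and astrocytes cover it with their endfeet.

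Promoter windows of 300 bases, from 250 before to 50 after a start that RefSeq annotates (build GRCm38.p6), were found for 9 of the 10 genes, 12 windows in all. Slc7a5 had no window. That of Abcb1a lay 92.9 kb from the GENCODE start of the gene, and 2 of the 3 windows of Abcg2 lay 11.9 and 55.8 kb from its GENCODE start, while 8 genes, Abcg2 among them, had a window within 1 kb of theirs. The windows of the paralogs Slco1c1 and Slco1a4 are shown because both carriers had most of their RNA in the Endothelial class and lie on chromosome 6 with 235.3 kb between them. Capitals mark the longest run of letters that the 2 windows share.
Slco1c1, chr6:141524104-141524403, plus strand: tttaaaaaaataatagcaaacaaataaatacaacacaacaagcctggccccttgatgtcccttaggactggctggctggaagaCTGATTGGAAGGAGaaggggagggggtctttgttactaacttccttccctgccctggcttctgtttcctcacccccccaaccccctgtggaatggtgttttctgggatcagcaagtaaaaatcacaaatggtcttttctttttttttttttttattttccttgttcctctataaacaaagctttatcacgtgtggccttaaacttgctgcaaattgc
Slco1a4, chr6:141856171-141856470, minus strand: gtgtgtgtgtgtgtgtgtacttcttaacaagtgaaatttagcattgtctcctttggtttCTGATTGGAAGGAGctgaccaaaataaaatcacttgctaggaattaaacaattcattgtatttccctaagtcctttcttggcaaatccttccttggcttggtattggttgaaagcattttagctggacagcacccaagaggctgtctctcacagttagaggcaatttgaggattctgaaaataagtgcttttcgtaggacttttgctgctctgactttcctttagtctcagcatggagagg
The run is 14 bases long and starts 167 bases before the annotated start of Slco1c1 and 191 bases before that of Slco1a4. On either strand it stood in these 2 of 32851 mouse promoter windows, a set that leaves out 1 chromosome. Its presence in both was fixed by the choice of the run, so this count is no test of the pair. Among the other 35 pairs of the 9 genes, compared by the first window of each gene, the longest run shared on the same strand was 6 to 13 bases. The letters AGGAAG, which hold the core of ETS factor motifs, were on either strand in a window of 5 of the 9 genes, 1 of them Abcb1a with its distant window. Over all genes they were in a window of 10383 of 27025 genes, and in 35.4% of all windows. The windows of Slco1c1 and Slco1a4 had 42% and 40.7% G or C and 1 CG pair each, against a median of 52.7% and 7 pairs over all windows, while that of Slc16a1 had 73.7% and 42 pairs.

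After 207 doublets were removed, 12616 cells remained, with 2822, 2099 and 1751 cells in the ASO mice and 1821, 2013 and 2110 cells in the PBS mice. Median UMIs per cell were 1037 to 1055 in ASO mice and 1027 to 1096 in PBS mice, and 8 barcodes occurred in more than 1 mouse. Levels are CPM, the UMIs of a gene per 1e6 UMIs of the cells counted. Mylip over all cells stood at 38.7, 30.2 and 33.9 CPM in ASO mice and at 60.2, 70.0 and 74.8 CPM in PBS mice. Within the vessel classes the groups overlapped: Mylip stood at 36.2, 32.1 and 26.8 CPM in ASO and at 40.1, 31.6 and 32.4 CPM in PBS Endothelial cells, and at 64.4, 79.5 and 15.1 CPM in ASO and 53.7, 152.6 and 49.5 CPM in PBS Mural cells. The Endothelial class held 1809 cells and the Mural class 460. Both labels went with their markers: 14 Endothelial markers, none of them among the 10 genes, summed to 20002 to 20952 CPM in ASO and 18349 to 20376 CPM in PBS Endothelial cells, and 12 Mural markers to 23426 to 25750 CPM in ASO and 22546 to 24612 CPM in PBS Mural cells. Endothelial cells also carried Mural markers at 3148 to 4125 CPM in ASO and 4025 to 5184 CPM in PBS mice. The labels do not say whether the mice of a group came from separate litters or batches, so p-values measure the spread between these mice.

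Within the Endothelial class the 10 genes together took 1.09%, 1.21% and 1.10% of the UMIs of the ASO mice and 1.11%, 1.11% and 1.09% of those of the PBS mice. A UMI of at least 1 of them was found in 99.2% of the 1809 cells, of at least 3 in 94.6% and of at least 5 in 72.8%. Levels are CPM of all UMIs of the class, per mouse, and are a description with no test, because the authors' classes rest on the expression of the same cells. A 3′ count holds 1 tag per molecule and was not divided by length, so the order of genes by CPM is not read as an order of molecules. Endothelial depth was 260772 to 441664 UMIs in ASO mice and 274028 to 380013 UMIs in PBS mice.

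Cldn5 (chromosome 16, 18776847 to 18778262, plus strand, GRCm38) encodes claudin-5, the main claudin of brain endothelial tight junctions. It stood at 985, 710 and 920.3 CPM in ASO mice and at 1051, 695 and 700.2 CPM in PBS mice. The groups overlapped, and the highest and the lowest mouse were both PBS mice. The Endothelial class held 94.7% of its 6-mouse UMIs, the largest share among the 10 genes. A UMI of Cldn5 was found in 1029 of 1809 Endothelial cells (56.9%, exact binomial 95% interval 54.6% to 59.2%, median 1026 UMIs) and in 6 of 1877 astrocytes (0.32%, median 1095 UMIs), a class that should lack it. With every cell thinned to 500 UMIs the shares were 34.7% and 0.16%.

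The carriers of nutrients follow. Slc2a1 (chromosome 4, 119108711 to 119137983, plus strand), the glucose transporter GLUT1, stood at 1356, 1603 and 1841 CPM in ASO mice and at 1609, 2026 and 1624 CPM in PBS mice. Slc16a1 (chromosome 3, 104638668 to 104658462, plus strand), the lactate and ketone body transporter MCT1, stood at 369, 276 and 253 CPM in ASO mice and at 339, 287 and 324 CPM in PBS mice. Slc7a5 (chromosome 8, 121881150 to 121907694, minus strand), the LAT1 subunit that carries large neutral amino acids, stood at 444, 504 and 518 CPM in ASO mice and at 631, 497 and 579.6 CPM in PBS mice. In each of the 3 genes the groups overlapped, and the lowest mouse was an ASO mouse. Mfsd2a (chromosome 4, 122946850 to 122961188, minus strand) encodes a lysolipid transporter that brings in docosahexaenoic acid and keeps transcytosis low in mouse brain endothelium. It stood at 267, 222 and 257 CPM in ASO mice and at 244.5, 229 and 247 CPM in PBS mice, and its SD over 6 mice (17.0 CPM around a mean of 244.4 CPM) was the smallest relative to the mean among the 10 genes.

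The organic anion carriers are the paralogs Slco1a4 and Slco1c1. Slco1a4 (chromosome 6, 141805440 to 141856199, minus strand), which moves bile salts, steroid conjugates and drugs, stood at 2506, 3344 and 2416 CPM in ASO mice and at 2489, 2484 and 2745 CPM in PBS mice. ASO mouse 2 lay above the other 5 mice, and the groups overlapped. Slco1c1 (chromosome 6, 141524368 to 141570177, plus strand), a thyroxine carrier, stood at 2017, 1799 and 1948 CPM in ASO mice and at 1909, 1579 and 1730.0 CPM in PBS mice, again with overlap. A UMI was found in 86.7% of Endothelial cells for Slco1a4 and in 79.0% for Slco1c1 (69.0% and 57.0% thinned to 500 UMIs). With the same thinning the shares were 0.864% and 1.84% in microglia and macrophages.

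The pumps use ATP to move compounds out of the cell. Abcb1a (chromosome 5, 8660077 to 8748575, plus strand), 1 of the mouse P-glycoprotein genes, stood at 1662, 1921 and 1507 CPM in ASO mice and at 1839, 1742 and 1606 CPM in PBS mice. Its close copy Abcb1b (chromosome 5, 8798147 to 8866315, plus strand) stood at 40.8, 57.8 and 72.9 CPM in ASO mice and at 76.6, 44.7 and 105.9 CPM in PBS mice. In both genes the groups overlapped. None of the 50-base words in the last 500 bases of the longest coding transcript of any of the 10 genes occurred in a transcript of another gene (GENCODE vM21), and 3.1% of those of Abcb1b occurred in Abcb1a or Abcb4. Abcg2 (chromosome 6, 58584523 to 58695676, plus strand), the breast cancer resistance protein, stood at 571, 1012 and 832 CPM in ASO mice and at 620.4, 903 and 833 CPM in PBS mice. Its lowest and its highest mouse were both ASO mice.

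Tfrc (chromosome 16, 32608920 to 32632794, plus strand), the transferrin receptor that brings iron into the cell, stood at 691, 720 and 541 CPM in ASO mice and at 398, 632 and 485.5 CPM in PBS mice. The groups overlapped, with PBS mouse 1 the lowest of the 6. A UMI was found in 39.7% of Endothelial cells and in 1.35% of microglia and macrophages (median 985 UMIs), and in 23.3% and 0.702% with every cell thinned to 500 UMIs.

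**Figure D1:**
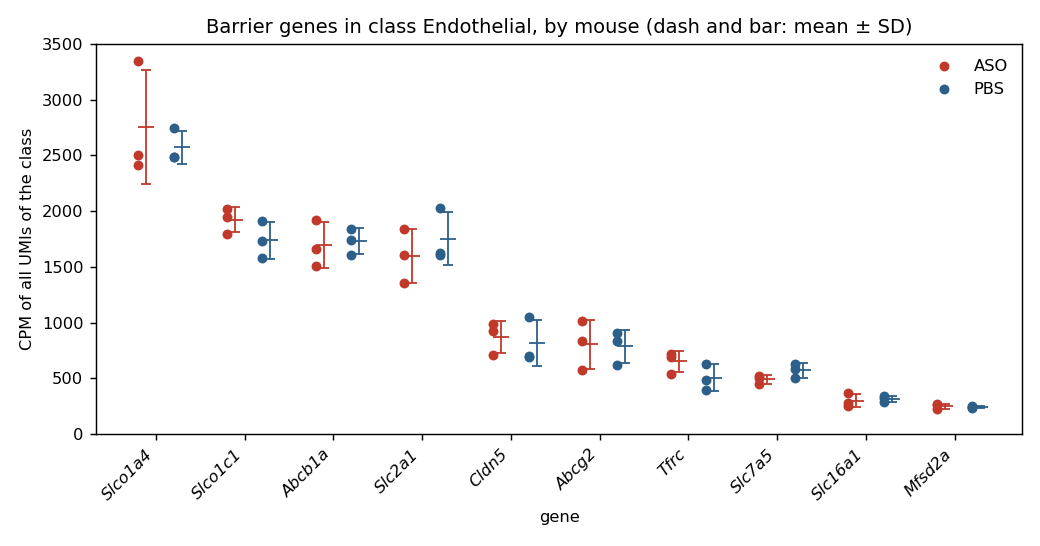
CPM of the 10 barrier genes in the Endothelial class, with 1 point a mouse for ASO (red) and PBS (blue) mice and the mean ± SD over 3 mice beside them. The points of the 2 groups overlap for each gene, from Slco1a4 (2416 to 3344 CPM in ASO mice, 2484 to 2745 CPM in PBS mice) down to Mfsd2a (222 to 267 CPM in ASO mice, 229 to 247 CPM in PBS mice).

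Outside the vessel classes some of the 10 genes had RNA well above the level of endothelial RNA in general, and others did not. The 14 Endothelial markers gave that general level: their median was 0.723% of the Endothelial level in astrocytes (range over markers 0.282% to 2.40%), 0.964% in oligodendrocytes (0.356% to 3.17%), 0.909% in polydendrocytes (0.281% to 1.89%) and 1.50% in microglia and macrophages (0.236% to 9.74%). Cldn5, Slco1a4 and Abcb1a lay between 0.321% and 0.939% of their Endothelial level in these 4 classes, within the range of the markers in each. Levels of the 6 mice summed are used for these percentages.

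Mfsd2a reached 83.7% of its Endothelial level in polydendrocytes, the oligodendrocyte precursors, and 52.8% in astrocytes, and the Endothelial class held 45.6% of its UMIs. Means over 6 mice were 244.4 ± 17.0 CPM in Endothelial cells, 195.5 ± 53.5 CPM in polydendrocytes and 129.3 ± 60.1 CPM in astrocytes (SD, n = 6), and neighbours in this order overlapped within 1 SD. In oligodendrocytes, which follow from polydendrocytes, it stood at 3.55% of the Endothelial level.

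Slco1c1 reached 23.1% of its Endothelial level in astrocytes, where it had 939 UMIs and stood at 468, 295 and 503 CPM in ASO mice and at 435, 438 and 403 CPM in PBS mice. The ASO mice held both the highest and the lowest of these values. It reached 42.0% in choroid plexus cells, from 45 UMIs, with 644.6 ± 395.8 CPM over 6 mice. Its paralog Slco1a4 stood at 0.677% in astrocytes and 5.13% in choroid plexus cells, beside medians of the Endothelial markers of 0.723% and 2.87%.

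Slc16a1 reached 25.4% of its Endothelial level in oligodendrocytes (265 UMIs), 35.5% in ependymal cells, which line the ventricles (26 UMIs), and 12.5% in astrocytes (87 UMIs). Oligodendrocytes are known to use this transporter to pass lactate to axons. Slc2a1 reached 24.8% in ependymal cells (97 UMIs, 391.9 ± 24.0 CPM in ASO mice and 439 ± 121 CPM in PBS mice, n = 3 each), 5.11% in astrocytes and 4.36% in oligodendrocytes. In ependymal cells the Endothelial markers had a median of 0.883% and a range of 0.141% to 56.9%. Slc16a1 and Slc2a1 lay within that range there. Tfrc was spread over neurons and glia, with 24.4% in CA2 and CA3 neurons (9 UMIs), 19.1% in interneurons, 16.3% in astrocytes, 11.1% in oligodendrocytes and 2.31% in microglia and macrophages. After Endothelial cells, neighbours in the order of its levels overlapped within 1 SD.

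Abcg2 reached 17.1% of its Endothelial level in fibroblast-like cells (17 UMIs), where the markers had a median of 6.48% and reached 43.7%, and 6.37% in polydendrocytes. Slc7a5 reached 10.1% in interneurons from 7 UMIs and 7.61% in Cajal-Retzius neurons from 12. The markers reached 3.34% in interneurons and 11.8% in Cajal-Retzius neurons. Abcb1b went another way than its copy: its level in microglia and macrophages was 118% of that in Endothelial cells, and this class held more of its UMIs (151) than the Endothelial class (129), whereas Abcb1a had 28 UMIs in microglia and macrophages and 3437 in Endothelial cells.

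**Figure D2:**
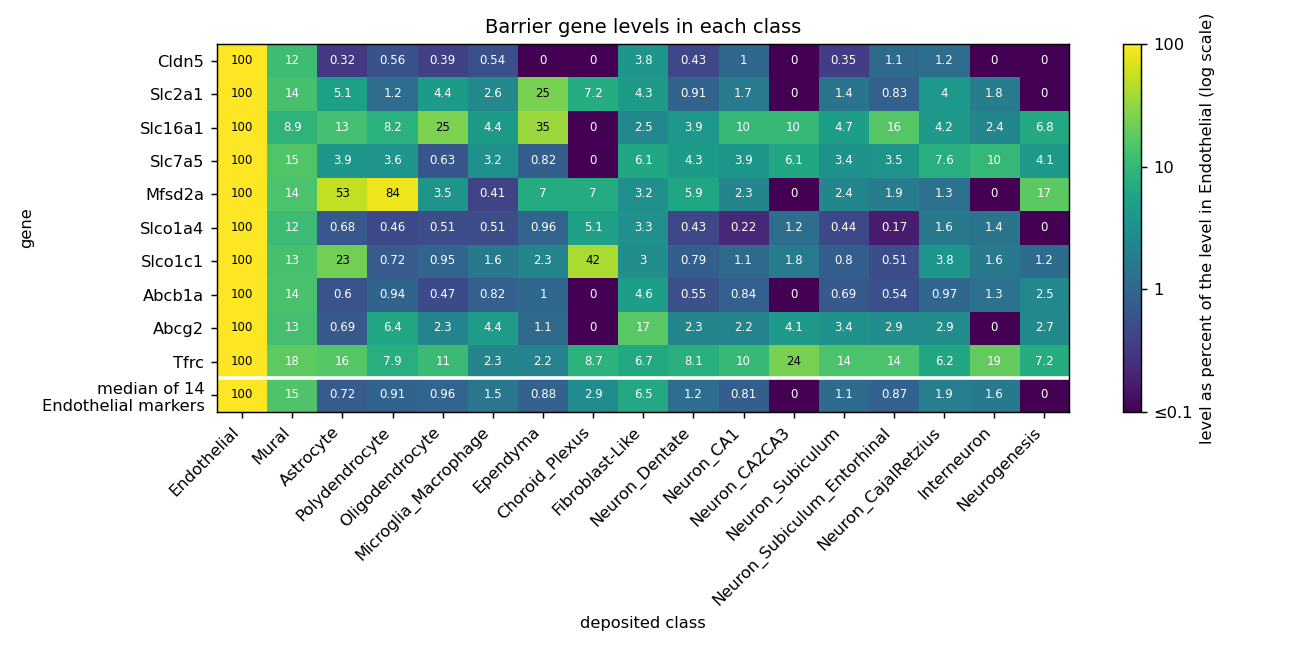
Level of each barrier gene in each deposited class as a percent of its level in the Endothelial class, with 6 mice summed and a log colour scale, and in the bottom row the median over 14 Endothelial markers. Mfsd2a in polydendrocytes (83.7%) and astrocytes (52.8%), Slco1c1 in astrocytes (23.1%) and Slc16a1 in oligodendrocytes (25.4%) stand above that row, and the Mural column (8.91% to 17.8%) lies around it (15.0%).

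In the Mural class the 10 genes lay at 8.91% (Slc16a1) to 17.8% (Tfrc) of their Endothelial level, and the 14 Endothelial markers at 9.84% to 47.8% with a median of 15.0%. A UMI of an Endothelial marker was found in 222 of 460 Mural cells. These 222 cells held nearly all the barrier RNA of the class. Cldn5 had 46 UMIs in them and 0 in the other 238 cells, and 0 of 238 cells allows a share of cells with a UMI of up to 1.26% (3 cells of the total, for counting error only), which does not limit the share of cells that express the gene. Slc16a1 had 13 and 0 UMIs, Abcb1a 109 and 2, Slco1a4 141 and 2, Slco1c1 108 and 5, Slc7a5 36 and 1, Mfsd2a 15 and 1, Abcg2 42 and 6, Tfrc 42 and 7, and Slc2a1 94 and 11, each with the cells that had a marker UMI first. Median UMIs per cell were 955 in cells with a marker UMI and 909 in those without.

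**Figure D3:**
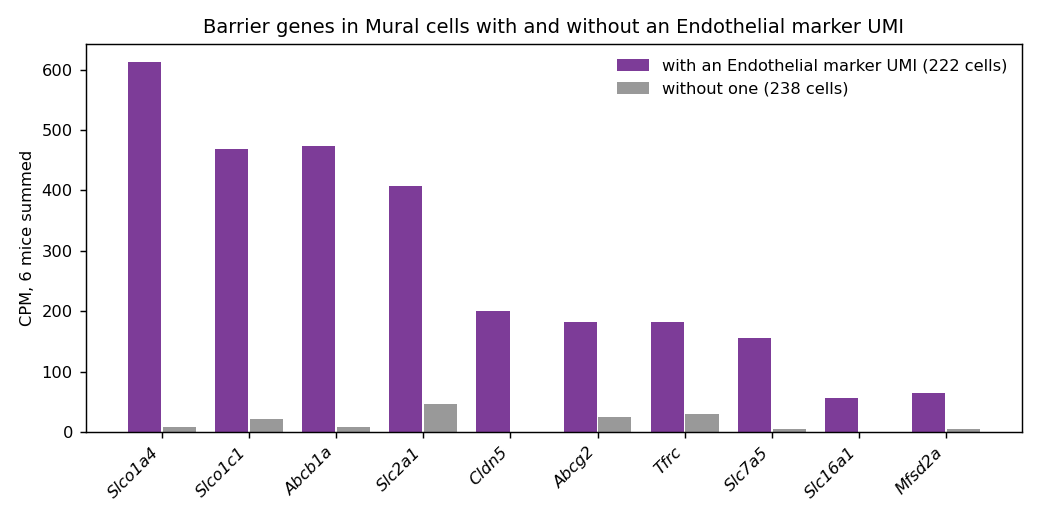
CPM of the 10 barrier genes in Mural cells with at least 1 UMI of 14 Endothelial markers (222 cells, purple) and without one (238 cells, grey), with 6 mice summed. Slco1a4 stood at 612 CPM in cells with a marker UMI and at 8.46 CPM in cells without, and Cldn5 and Slc16a1 at 0 in cells without.

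The ASO was compared with PBS in each class where every mouse had at least 20 cells, with edgeR's quasi-likelihood test on counts summed per mouse and Benjamini-Hochberg adjustment over all genes tested in the class (threshold 0.05). Log2 fold changes are ASO over PBS. In Endothelial cells none of the 10 genes passed, beside 0% of 6220 genes. At an unadjusted p under 0.05 there were 255 of the 6220 genes, none of the 10 among them, and DESeq2 called none of the 10. The difference was 0.35 (SE 0.180, adjusted p 0.9995) for Tfrc, -0.23 (SE 0.171) for Slc7a5, 0.14 (SE 0.170) for Slco1c1, -0.14 (SE 0.176) for Slc2a1, 0.10 (SE 0.183) for Cldn5, 0.09 (SE 0.177) for Slco1a4, -0.07 (SE 0.184) for Slc16a1, 0.05 (SE 0.185) for Mfsd2a, -0.03 (SE 0.170) for Abcb1a and 0.02 (SE 0.190) for Abcg2. Their median was 0.03, beside 0.003 over all genes tested, and 6 were above 0 and 4 below.

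In the other classes, apart from Mural, none of the barrier genes that were tested passed. Tested were 5 of the 10 in astrocytes, 4 in oligodendrocytes, 3 in microglia and macrophages, and 1 each in dentate neurons and polydendrocytes. Of all genes, 0% of 6282 passed in astrocytes, 0% of 5064 in dentate neurons, 0.0365% of 5473 in microglia and macrophages, 0.238% of 7141 in oligodendrocytes and 0.0447% of 4479 in polydendrocytes. In CA1, Cajal-Retzius and subiculum neurons no barrier gene passed the filter on low counts. In astrocytes Mfsd2a had the smallest p of the 5 genes tested (log2 fold change -0.72, SE 0.265, adjusted p 0.999). It stood at 68.2, 105 and 126.5 CPM in ASO mice and at 111, 245 and 120.3 CPM in PBS mice. The groups overlapped, and PBS mouse 2 lay above the other 5. In polydendrocytes Mfsd2a had a log2 fold change of 0.12 (SE 0.255, adjusted p 0.997), and in oligodendrocytes Slc16a1 had one of 0.19 (SE 0.224, adjusted p 0.955).

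In Mural cells Abcb1a passed, lower in ASO than in PBS mice (log2 fold change -1.59, SE 0.361, adjusted p 0.0473), beside 0.257% of 1559 genes. Its level was 145, 172 and 45.3 CPM in ASO mice, from 18, 13 and 3 UMIs, and 255, 458 and 458 CPM in PBS mice, from 19, 21 and 37 UMIs. The groups did not overlap, and ASO mouse 3 was the lowest of the 6. Outside the 10 genes, Slc39a10 (-2.09, adjusted p 0.0146), Eltd1 (-1.945, adjusted p 0.0146) and Mt1 (0.94, adjusted p 0.0402) passed too. The other 3 of the 10 genes that were not removed by the filter on low counts were Slco1c1 (-1.23, SE 0.324, adjusted p 0.144), Slc2a1 (-0.86, SE 0.369, adjusted p 0.503) and Slco1a4 (-0.68, SE 0.332, adjusted p 0.609). Slco1c1 stood at 177, 172 and 90.7 CPM in ASO mice and at 295, 392.5 and 396 CPM in PBS mice, without overlap. Of all 10 genes, counted with no filter on the groups, 5 had every ASO mouse below every PBS mouse in Mural CPM (Cldn5, Slc2a1, Slco1c1, Abcb1a and Tfrc), beside 5.25% of the 7567 genes with at least 10 UMIs in the class. Mfsd2a, with 0 to 30.2 CPM in ASO mice and 26.8 to 87.2 CPM in PBS mice, rested on 16 UMIs, and Slc16a1 on 13.

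The Endothelial markers in Mural cells were lower on average in ASO mice too, a difference that was not tested, with an overlap of 1 ASO and 1 PBS mouse. The 14 summed to 2368, 3377 and 967 CPM in ASO Mural cells and to 2926, 5560 and 3923 CPM in PBS Mural cells, none of the 14 was at 0 in the class, and the share of Mural cells with a UMI of one was 44.4%, 48.7% and 39.1% in ASO mice and 48.5%, 59.2% and 54.5% in PBS mice. ASO mouse 3 was the lowest of the 6 in both measures. Among Mural cells without a marker UMI, Abcb1a had 2 UMIs in ASO mice and 0 in PBS mice. Per 1000 UMIs of the 14 markers in Mural cells, a measure added after the data were seen, Abcb1a stood at 61.2, 51.0 and 46.9 in ASO mice and at 87.2, 82.4 and 117 in PBS mice, without overlap. The value of ASO mouse 3 rested on 3 UMIs of Abcb1a and 64 marker UMIs. Slc2a1 on the same measure stood at 85.0, 66.7 and 46.9 in ASO mice and at 82.6, 74.5 and 72.6 in PBS mice, with overlap. Slco1c1 stood at 74.8, 51.0 and 93.8 in ASO mice and at 100.9, 70.6 and 100.9 in PBS mice, with overlap. No other barrier gene was without overlap in Mural cells. The share over all genes was not counted, so the lack of overlap for Abcb1a is not read as a result. In Endothelial cells Abcb1a stood at 83.0, 91.7 and 75.4 per 1000 marker UMIs in ASO mice and at 100.2, 85.5 and 87.4 in PBS mice, with overlap. The part of endothelial RNA in the Mural result was not tested.

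**Figure D4:**
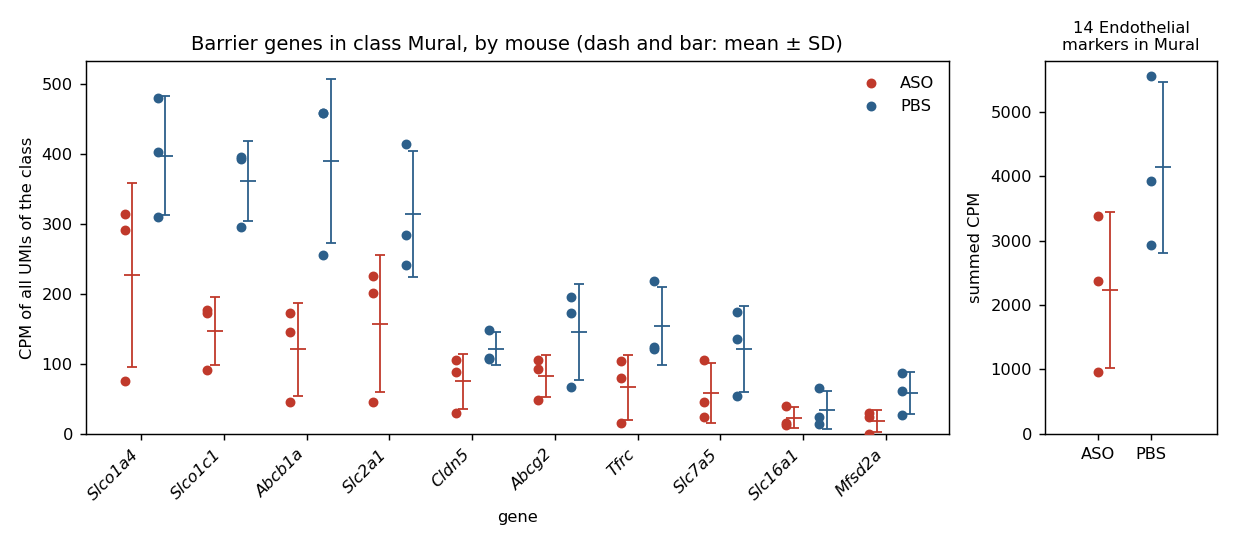
CPM of the 10 barrier genes in the Mural class (left), with 1 point a mouse for ASO (red) and PBS (blue) mice and the mean ± SD over 3 mice beside them, and summed CPM of 14 Endothelial markers in the same cells (right). Abcb1a stood at 45.3 to 172 CPM in ASO mice and 255 to 458 CPM in PBS mice, and the markers at 967 to 3377 CPM in ASO mice and 2926 to 5560 CPM in PBS mice.

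The call for Abcb1a in Mural cells was lost without ASO mouse 1 (log2 fold change -1.76, adjusted p 0.141), without ASO mouse 3 (-1.28, 0.374), without PBS mouse 2 (-1.51, 0.296), without PBS mouse 3 (-1.39, 0.770), with doublets kept (-1.54, 0.0880), with a term for 3 technical sets of 1 ASO and 1 PBS mouse each (-1.58, 0.349) and with DESeq2 (-1.59, 0.912), and 4 of 12 alternatives kept it, with adjusted p as low as 0.00192. With each cell's class taken from marker genes the log2 fold change was -0.60 (adjusted p 0.496).

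Whether the ASO effect differed between the 2 vessel classes was tested as the effect in Endothelial minus that in Mural cells, in 1 edgeR fit with mouse as a block. The difference for Abcb1a was 1.56 (SE 0.341, adjusted p 0.0132), beside 0.0651% of 6148 genes that passed. Outside the 10 genes, Slc39a10 (1.96, adjusted p 0.00500), Eltd1 (1.95, adjusted p 0.00500) and Apold1 (-1.13, adjusted p 0.0300) passed too. Among the 10, next by p-value were Slco1c1 at 1.35 (SE 0.332, adjusted p 0.0552), Tfrc at 1.36 (SE 0.447, adjusted p 0.359) and Slco1a4 at 0.80 (SE 0.306, adjusted p 0.656). Each of the 10 genes had a difference above 0, Slc16a1 the smallest at 0.12 (SE 0.816), with a median of 0.81 beside 0.01 over all genes tested. The share of all genes above 0 was not counted. In Mural cells alone only 4 of the 10 passed the filter on low counts, and the others entered this fit through their Endothelial counts. The Mural side of these others rested on 13 (Slc16a1) to 49 (Tfrc) UMIs. Nearly all these UMIs lay in the Mural cells with an Endothelial marker UMI. The signs are therefore not separate results, and neither they nor the median are a test of the 10 genes as a set. In the 4 lists of other barrier genes given below, 11 of 15 junction genes, 13 of 24 carriers and pumps, 11 of 16 receptor and transcytosis genes and 15 of 23 transcription and Wnt genes had a difference above 0, with medians of 0.55, 0.10, 0.16 and 0.27. Single genes of these lists lay above Abcb1a without passing. They were Pecam1, an Endothelial marker here, at 1.58 (SE 0.484), Erg at 1.71 (SE 0.541) and Sox17 at 1.68 (SE 0.522). Others lay below 0, such as Slc7a1 at -0.82 (SE 0.558). The call for Abcb1a was lost without ASO mouse 1 (1.75, adjusted p 0.0926), without ASO mouse 3 (1.25, 0.451), without PBS mouse 2 (1.47, 0.175), without PBS mouse 3 (1.29, 0.412) and with DESeq2 (1.58, 1.0), and was kept in the other 5 of 10 alternatives. Leaving out cells with the other class's markers is not among the 10. Abcb1a then had 2 UMIs in ASO and 0 in PBS Mural cells, which gives no bounded difference.

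The barrier genes differed among themselves along the vessel tree. Endothelial cells with a UMI of a venous marker and none of an arterial marker (411 cells) were compared with cells of the reverse kind (412 cells), with mouse as a block and without the marker genes. The sets were made from 5 venous markers (Slc38a5, Nr2f2, Lcn2, Il1r1 and Tmem252) and 9 arterial ones (Gkn3, Bmx, Sema3g, Hey1, Vegfc, Efnb2, Fbln5, Cytl1 and Gja5). These markers were chosen with earlier results of these data known. Of the 10 genes 5 were higher in venous-marker cells and 1 was lower, beside 2.81% of 2528 genes higher and 3.64% lower. The remaining 854 Endothelial cells had neither kind of marker and 132 had both, and median UMIs per cell were 1132 in the venous set and 1080.5 in the arterial set. Summed Mural markers were 3129 to 5992 CPM in the venous set and 2613 to 4878 CPM in the arterial set, and their part in the result was not tested.

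Slc16a1 had the largest change of the 10. Its normalised CPM in venous-marker cells was 784, 469 and 547 in ASO mice and 611, 452 and 445 in PBS mice, against 264, 196 and 133 in ASO mice and 419, 181 and 74.0 in PBS mice in arterial-marker cells. Every mouse was higher in its venous-marker cells, a log2 fold change of 1.40 (SE 0.208, adjusted p 4.43e-07) or 2.65-fold. Tfrc was 2.20-fold higher (1.14, SE 0.154, adjusted p 4.02e-08), with 908 ± 272 in venous-marker cells and 409 ± 92.6 normalised CPM in arterial-marker cells (SD, n = 6). Slc7a5 was 1.70-fold higher (0.76, SE 0.156, adjusted p 0.000296), at 780 ± 178 in venous-marker cells and 456 ± 71.2 normalised CPM in arterial-marker cells. For both genes too, 6 of 6 mice were higher in venous-marker cells. These 3 are the carriers of lactate and amino acids and the receptor for iron.

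Abcg2 was 1.44-fold higher in venous-marker cells (0.53, SE 0.127, adjusted p 0.00283) and Slco1a4 1.31-fold higher (0.39, SE 0.0930, adjusted p 0.00276), each in 6 of 6 mice. Slc2a1 went the other way and was lower in venous-marker cells in 6 of 6 mice (-0.33, SE 0.106, adjusted p 0.0471). Its normalised CPM was 2189 ± 295 in venous-marker cells and 2740 ± 327 in arterial-marker cells (SD, n = 6). Abcb1a (0.25, SE 0.107, adjusted p 0.201), Slco1c1 (-0.14, SE 0.104, adjusted p 0.564), Mfsd2a (-0.12, SE 0.212, adjusted p 0.860) and Cldn5 (-0.04, SE 0.126, adjusted p 0.935) did not pass. The paralogs Slco1a4 and Slco1c1 thus had log2 fold changes of 0.39 and -0.14, and the difference between the 2 genes was not tested.

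Cells with neither kind of marker, 47.2% of the class, lay near the venous set for Slc16a1 (CPM of all UMIs, 356 ± 88.5 in them, 397 ± 92.8 in the venous set and 151 ± 85.5 in the arterial set), Tfrc (707 ± 176 in them, 654.5 ± 199 in the venous set and 292 ± 67.2 in the arterial set) and Slc7a5 (645 ± 104 in them, 562 ± 130.1 in the venous set and 324 ± 49.9 in the arterial set), all SD over 6 mice. For Slc2a1 they stood at 1551 ± 248, beside 1578 ± 225 in the venous set and 1951 ± 227 CPM in the arterial set. Their median was 914 UMIs per cell. Slc2a1 kept its call in 2 of 11 alternatives and, without ASO mouse 1, ASO mouse 3 or any 1 of the 3 PBS mice, lost it. With DESeq2 the calls were Slc16a1, Slco1a4 and Tfrc, and with cells that carried Mural marker UMIs left out (143 venous-marker and 153 arterial-marker cells left) none of the 10 passed, with Slc16a1 at 1.07 (SE 0.347, adjusted p 0.0797) and Tfrc at 0.92 (SE 0.293, adjusted p 0.0758).

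**Figure D5:**
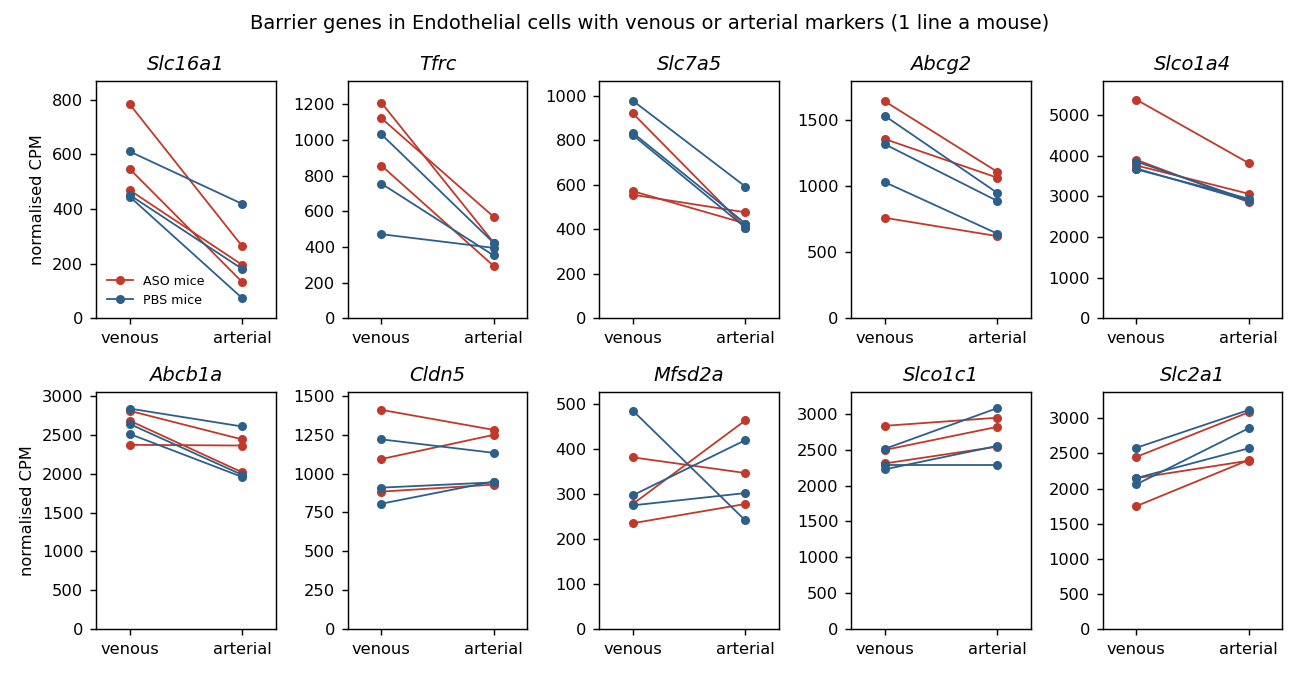
Normalised CPM of the 10 barrier genes in Endothelial cells with venous markers (left of each panel) and arterial markers (right), with 1 line a mouse for ASO (red) and PBS (blue) mice. Slc16a1, Tfrc, Slc7a5, Abcg2, Slco1a4 and Abcb1a are higher in the venous-marker cells of 6 of 6 mice, of which Abcb1a did not pass the test, and Slc2a1 is lower in 6 of 6.

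Other genes of the same vessel comparison give its scale. The called genes with the largest decrease in venous-marker cells were Igfbp3 (-3.46, SE 0.662), Egfl8 (-2.97, SE 0.620), Rad54b (-2.63, SE 0.336), Mgp, which encodes an inhibitor of calcification (-2.32, SE 0.153), and Alpl, the alkaline phosphatase of brain capillaries and arterioles (-2.22, SE 0.304), with adjusted p from 5.89e-20 to 0.000394. Among those with the largest increase were Flrt2 (3.40, SE 0.661), Ndnf (2.22, SE 0.369), the carbonic anhydrase gene Car4 (2.02, SE 0.151) and Tmsb10 (1.93, SE 0.241), with adjusted p from 1.90e-17 to 0.000136.

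The other genes of the barrier were taken in 4 lists of 20 junction genes, 30 further carriers and pumps, 21 receptors and genes of transcytosis, and 24 genes of endothelial Wnt signalling and barrier transcription. Between ASO and PBS in Endothelial cells 0 of the 15, 24, 16 and 23 tested members passed, with medians of 0.07, 0.01, -0.06 and 0.04 beside 0.003 over all genes. In Mural cells 0 of 4, 1 of 8, 0 of 6 and 0 of 1 passed, beside 0.257% of all genes tested there. The 1 was Slc39a10, a zinc importer, at -2.09 (SE 0.403, adjusted p 0.0146), which also passed in the difference between the classes (1.96, SE 0.405, adjusted p 0.00500). Its Endothelial level was 675, 944.5 and 867 CPM in ASO mice and 755, 979 and 891.5 CPM in PBS mice, with overlap. The Mural call was kept in 4 of 12 alternatives and lost in the others, among them without ASO mouse 1 or 3 or any 1 PBS mouse, with the technical sets, with DESeq2 (adjusted p 0.402) and with classes from markers. Over the 12 the log2 fold change lay between -2.36 and -1.57. The difference between classes kept its call in 6 of 11 alternatives. It lost it without ASO mouse 1 (adjusted p 0.0926), ASO mouse 3 (0.216) or PBS mouse 1 (0.134) and with DESeq2 (1.0), and turned to -0.57 (adjusted p 1.0) without cells that carried the other class's markers.

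In the same lists, venous-marker and arterial-marker cells were compared. Of 19 carriers and pumps tested, 3 were higher in venous-marker cells and 2 lower, beside the 2.81% higher and 3.64% lower of all genes tested. Higher were the organic anion transporter gene Slc22a8 (1.22, SE 0.214, adjusted p 2.06e-05), the arginine and lysine transporter gene Slc7a1 (0.87, SE 0.177, adjusted p 0.000256) and Slc40a1, which encodes the iron exporter ferroportin (0.86, SE 0.206, adjusted p 0.00272). Lower were the taurine transporter gene Slc6a6 (-0.67, SE 0.107, adjusted p 3.27e-06) and the scaffold gene Slc9a3r2 (-0.56, SE 0.127, adjusted p 0.00156). The median of the 19 was 0.37, beside -0.003 over all genes tested.

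Against the same shares of 2.81% higher and 3.64% lower, 1 of 14 junction genes, Esam, was higher (0.42, SE 0.136, adjusted p 0.0471) and none was lower, while Tjp1, which encodes the scaffold ZO-1, had 0.20 (SE 0.153, adjusted p 0.596). Of 12 receptor and transcytosis genes 1, Igf1r, was higher (0.50, SE 0.140, adjusted p 0.0142) and 1, Sdpr, a gene of caveolae, was lower (-0.38, SE 0.118, adjusted p 0.0323). Of 15 transcription and Wnt genes 1, the ETS factor gene Fli1, was higher (0.92, SE 0.186, adjusted p 0.000256) and 2, Sox17 (-0.73, SE 0.142, adjusted p 0.000129) and Sox18 (-0.81, SE 0.246, adjusted p 0.0283), were lower, whereas Lef1 (0.23, SE 0.135, adjusted p 0.423), Foxq1 (-0.11, SE 0.157, adjusted p 0.835) and Erg (-0.15, SE 0.160, adjusted p 0.750) did not pass.

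The genes most like each member over the 17 classes were found by Pearson's r of log2(CPM + 1), among genes with at least 200 UMIs, as a description in which the classes share libraries and depth. Slco1a4 was most like Gpr116 (r = 0.971), Ptprb (0.919) and Ccdc141 (0.899), and Tfrc was most like Hdac7 (0.944), Insr, the insulin receptor gene (0.809), and Mageb18 (0.766). Cldn5 was most like Foxf2 (0.910), Galnt15 (0.902) and Higd1b (0.888), and Slc7a5 most like Ece1 (0.908), Gpcpd1 (0.894) and Ramp2 (0.872). Higd1b is a Mural marker here and, unlike Cldn5, was higher in Mural (531 CPM) than in Endothelial cells (178 CPM). For Slc2a1 the nearest were Pltp (0.905), Abcc4 (0.875) and Cd59b (0.872), for Mfsd2a Rgcc (0.900), Tril (0.834) and Mxd4 (0.827), for Abcb1a Ahnak (0.887), Ly6c1 (0.871) and Tmem204 (0.860), for Slco1c1 Bsg (0.873), Id1 (0.837) and Gatsl3 (0.830), for Abcg2 H2-T23 (0.848), Bnip2 (0.843) and Tmod3 (0.822), and for Slc16a1 Pik3c2a (0.823), Ap3m1 (0.808) and Bcl2l1 (0.805). Between the 10 genes themselves r ran from 0.015 (Slc16a1 with Slco1c1) to 0.809 (Cldn5 with Abcb1a).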

How the data were processed

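The deposited table holds the authors' raw UMI counts, not normalized, for each gene in each cell, and its column names carry the mouse, the barcode and a cell class, per the file headers. The tools were STAR 2.5.0c and bcl2fastq and the builds GRCm38 and mm10, per the submitters' processing notes, and the counting program is not given in the sources used here. Doublets were called per mouse with Scrublet in scanpy 1.11.5 and removed (207 cells, 1.61%). The cells of the table had 569 to 1999 UMIs. Columns that matched no sample numbered 0. Counts were summed per mouse and deposited class and tested with glmQLFit and glmQLFTest of edgeR 4.0.16 (R 4.3.3) after filterByExpr and TMM scaling, two-sided, adjusted over all genes tested. Normalised CPM is scaled by TMM over tested genes. DESeq2 1.42.0 and the other alternatives are given in the closing section. The fits were also run on simulated counts, with an outcome that is not reported here. Shares have exact binomial intervals, which cover counting error only. The members, marker lists and gene lists were chosen with earlier results of these data known. The names given are all 10 members, Abcb1b, list members past the threshold or else the 4 of highest Endothelial CPM (not each of those is described), the 5 most changed genes each way between vessel sets (not all reported here) and the 3 genes most like each member. Outside this rule, Eltd1, Mt1 and Apold1 are named because they passed in Mural cells or in the difference between the classes.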

Additional observations from a re-analysis of the deposited data

Results flagged for a closer look

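Abcb1a met the test of a difference between 2 classes: its ASO effect in Endothelial cells minus that in Mural cells was 1.56 on the log2 scale (SE 0.341, edgeR adjusted p 0.0132). The effect itself was -0.03 (SE 0.170) in Endothelial and -1.59 (SE 0.361) in Mural cells. The Mural values rest on 34 UMIs in ASO and 77 UMIs in PBS mice, and the summed Endothelial markers in the same cells were 967 to 3377 CPM in ASO and 2926 to 5560 CPM in PBS mice. Their part in the result was not tested.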

How the results depend on the processing

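The labels pair no mice. The main tests between ASO and PBS had no block. A term for 3 technical sets of 1 ASO and 1 PBS mouse each was used in 1 alternative only. These sets were formed by ranking the mice by their mt-Rnr2 to mt-Cytb ratio, and no label gives them. Mouse was a block where 2 classes or sets of cells of the same mice were compared. The number of genes that passed between ASO and PBS was 0 in Endothelial cells and 0 to 1 with a mouse left out. In Mural cells it was 4, 0 to 11 with a mouse left out, 2 with doublets kept, and 0 with a term for 3 technical sets of 2 mice (by their mt-Rnr2 to mt-Cytb ratio), with DESeq2, without cells that held an Endothelial marker UMI (238 cells and fewer genes tested) and with classes from markers. For the difference between the classes it was 4, 0 to 15 with a mouse left out, 0 with DESeq2 and 1 without cells that held the other class's markers. Without those cells 6 of the 10 genes, Abcb1a among them, had no UMI in Mural cells of 1 or both groups and were left out. Between venous-marker and arterial-marker cells 163 genes and 6 members passed, 103 to 161 genes and 5 to 6 members with a mouse left out, 59 and 3 with DESeq2, and 30 and 0 without cells that held a Mural marker UMI (fewer cells and genes). Signs turned for values near 0 in Endothelial cells: Cldn5 to -0.0905, Mfsd2a to -0.28 and Abcg2 to -0.11 without cells that held a Mural marker UMI, and Abcg2 to -0.0110 without the filter on low counts and -0.0207 with classes from markers. With a mouse left out the ranges there were -0.127 to 0.0281 for Abcb1a, -0.18 to 0.23 for Abcg2, -0.00218 to 0.31 for Cldn5, -0.00250 to 0.13 for Mfsd2a, -0.25 to 0.0201 for Slc16a1 and -0.0665 to 0.17 for Slco1a4. In the difference between the classes Slc16a1 turned to -0.0474 with doublets kept and Abcg2 to -1.70 without cells of the other class's markers, and with a mouse left out Slc16a1 lay between -0.53 and 0.74. Between the vessel sets Cldn5 lay between -0.0878 and 0.00263 and Mfsd2a between -0.34 and 0.0667 with a mouse left out. The cause was not tested. Thinned to 500 UMIs, the shares of Endothelial cells with a UMI fell to 10.6% (Mfsd2a) to 69.0% (Slco1a4), against 21.5% to 86.7% as counted, since fewer UMIs are drawn. The 10 Endothelial levels moved by less than 1 SD in 80 of 80 alternatives. Depth limits the Mural values, where 3 UMIs over 6 mice equal 6.42 CPM.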

Other observations

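Mfsd2a in oligodendrocytes, chosen after its values were seen, was too low for the filter on low counts. It stood at 9.58, 21.2 and 11.2 CPM in ASO mice, from 8, 12 and 5 UMIs, and at 1.90, 4.15 and 2.09 CPM in PBS mice, from 1, 2 and 1 UMIs. Without the filter the log2 fold change was 2.23 (SE 0.706, edgeR adjusted p 0.277), and the gene did not pass. Other barrier genes below the filter had large values in either direction without passing. Examples are Slco1a4 in polydendrocytes (-3.04, SE 1.12, edgeR adjusted p 0.864) and Cldn5 in astrocytes (4.03, SE 1.76, edgeR adjusted p 0.889).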
